A study of Homo sapiens with 9 samples.

Results

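Immediate early genes are transcribed within minutes of a growth or stress signal, before any new protein is made. The members described here are the 10 genes EGR1, FOS, FOSL1, JUN, JUNB, JUND, IER2, IER3, MYC and DUSP1, taken by name and looked up by NCBI Gene ID, and all 10 were among the 28395 genes counted in each library. The cells were Caco-2, an established line from a human colon carcinoma, labelled wild type and differentiated, a state in which it takes on features of absorptive enterocytes. They were sampled after 24 h with 10 µM carmine, with 20 µM carminic acid, or untreated in regular culture medium (control), with 3 samples per group, named A, B and C. All cells were grown in DMEM with fetal bovine serum. Carminic acid is a red pigment from cochineal, and carmine holds it bound to aluminium. The agents therefore differ in the metal and here also in stated dose, and they were not tested against each other. The labels call each treatment a triplicate without naming separate cultures, and the p-values cover the spread among the triplicates, which could be technical. In such bulk samples, fewer cells of a kind and less RNA per cell cannot be told apart.

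Mitogens such as those in serum act through receptors and the ERK, JNK and p38 kinase cascades on factors that already sit on the promoters of these genes, among them serum response factor at CArG boxes and CREB at cAMP response elements. The products are mostly transcription factors. FOS and FOSL1 pair with JUN, JUNB or JUND to form AP-1, EGR1 is a zinc finger factor, and MYC drives growth genes together with MAX. DUSP1 is a phosphatase that switches the kinases off again. In the intestine, MYC is best known as a target of WNT signalling in dividing crypt cells, and many immediate early mRNAs are short-lived because of AU-rich stretches in their 3′ untranslated regions. A sample at 24 h is far later than the transient peak these genes are named for.

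The 250 bases before the annotated start are shown for 4 members to place these sites (RefSeq, GRCh38.p14, each 5′ to 3′ on the strand of the gene). Capitals mark CArG boxes, the cAMP response element core TGACG on either strand, and the TATA box core TATAAA. EGR1 and FOS are shown because both are classical serum-response genes, JUND because it varied most between libraries among the 9 members with enough counts for a test, and DUSP1 because it varied least among them. The stretches are chr5:138465229-138465478 (plus strand) for EGR1, chr14:75278578-75278827 (plus) for FOS, chr19:18281623-18281872 (minus) for JUND and chr5:172771196-172771445 (minus) for DUSP1.
EGR1: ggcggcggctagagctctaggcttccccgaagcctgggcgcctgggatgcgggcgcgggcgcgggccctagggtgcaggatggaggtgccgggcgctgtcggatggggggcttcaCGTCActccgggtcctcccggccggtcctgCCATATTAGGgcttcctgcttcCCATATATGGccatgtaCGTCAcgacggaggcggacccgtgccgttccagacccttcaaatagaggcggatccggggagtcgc
FOS: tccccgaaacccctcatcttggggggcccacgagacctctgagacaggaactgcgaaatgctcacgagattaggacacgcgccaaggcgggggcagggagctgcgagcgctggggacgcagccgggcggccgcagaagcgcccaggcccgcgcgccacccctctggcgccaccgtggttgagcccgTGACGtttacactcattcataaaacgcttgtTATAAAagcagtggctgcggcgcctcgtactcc
JUND: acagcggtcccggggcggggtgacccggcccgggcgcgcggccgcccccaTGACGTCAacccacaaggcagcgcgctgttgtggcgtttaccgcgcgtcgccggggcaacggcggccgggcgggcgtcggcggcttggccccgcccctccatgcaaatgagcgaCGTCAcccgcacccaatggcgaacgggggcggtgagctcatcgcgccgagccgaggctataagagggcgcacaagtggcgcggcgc
DUSP1: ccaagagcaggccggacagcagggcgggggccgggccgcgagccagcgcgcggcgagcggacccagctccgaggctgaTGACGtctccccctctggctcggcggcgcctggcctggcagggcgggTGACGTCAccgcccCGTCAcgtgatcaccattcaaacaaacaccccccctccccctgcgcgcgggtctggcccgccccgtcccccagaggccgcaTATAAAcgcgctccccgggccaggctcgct

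Promoters of 7 members were in the reference table, and those of FOSL1, IER3 and MYC were not. The core TGACG was present in this window in 7 of 7, against 21.2% of all 35116 promoters of the same length. The full element TGACGTCA, which contains the core on both strands, was present in JUND and DUSP1 and in 1.65% of all promoters. Within these 250 bases, CArG boxes were found in EGR1 alone of the 7, as CCATATTAGG and CCATATATGG, and in 1.16% of all promoters. Sites further upstream, in FOS or any other member, were not searched. TATAAA was present in FOS, JUNB and DUSP1 and in 10.7% of all promoters. On either strand, the AP-1 site TGANTCA was in 0 of 7 windows and in 6.57% of all promoters. The EGR site GCGNGGGCG was in 1 window (EGR1; 8.42% of all promoters), and the E-box CACGTG, which MYC binds, was in 1 window (DUSP1; 6.34%). Over the 17698 promoters of tested genes, the shares were 26.2% for TGACG, 2.30% for TGACGTCA, 1.05% for CArG boxes and 6.62% for TATAAA. There they were 4.62% for the AP-1 site, 12.4% for the EGR site and 7.98% for the E-box. These are matches of letters, not measured binding.

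Libraries held 54871018 to 57581301 counts. Levels are CPM, counts scaled to a common library size with TMM factors, and 16017 genes had enough counts for testing. Of 12 enterocyte markers, 11 were above 1 CPM, summing to 5625 to 6239 CPM with carmine, 5654 to 6171 CPM with carminic acid and 5561 to 5786 CPM in control, and KRT20 was at 0. The 7 goblet cell markers summed to 317 to 328 CPM with carmine, 300.5 to 342 CPM with carminic acid and 295.7 to 347 CPM in control. The 8 enteroendocrine and Paneth markers stayed under 16 CPM in sum, and the 5 endothelial markers under 14 CPM, with KDR and TEK at 0. The 7 fibroblast markers summed to 111 to 136, 117 to 150.1 and 125 to 163 CPM in carmine, carminic acid and control samples, and the 6 immune markers to 349 to 364, 338 to 408 and 319.8 to 353 CPM. Within these lists the levels were uneven. Of the goblet markers, AGR2 (161 to 229 CPM), ZG16 (87.1 to 119 CPM) and TFF3 (12.6 to 26.0 CPM) were present, while MUC2 was at most 0.0357 and SPDEF at most 0.143 CPM. COL1A1 (93.6 to 146 CPM), CD68 (299.7 to 389 CPM) and PECAM1 (9.77 to 12.5 CPM) carried their lists, while DCN was at most 0.0534 and PTPRC at most 0.0547 CPM. The 7 hepatocyte genes, which this line is known to express, summed to 1594 to 1621 CPM with carmine and 1567 to 1673 CPM with carminic acid, against 1413 to 1486 CPM in control. The mitochondrial chromosome took 0.974% to 1.30% of counts with carmine and 1.24% to 2.08% with carminic acid, against 1.94% to 2.51% in control. Both measures moved with the groups, and their part in the results below was not tested. Carmine sample C stood apart on the first principal component, at 34.5 where the others lay between -19.4 and 14.5, so the results with carmine are also given without it where they moved.

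None of the immediate early genes had an edgeR adjusted p under 0.05 with either agent in the fit without covariates. In 1 alternative, a replicate block with GC and length trends removed, EGR1 with carmine had an edgeR adjusted p of 0.036. That setting called 716 of 15292 genes with carmine. EGR1 and MYC were lower in every carmine sample than in every control sample, by 22.1% and 16.7% in the fitted values. FOSL1, at about 1 CPM, was lower in every carminic acid sample than in every control sample. FOS, JUN, IER2 and DUSP1 lay within 7.50% of control in both comparisons, and JUNB and JUND varied mostly with single libraries. Of the 10 members 9 had enough counts for a test, and IER3 did not.

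With carmine, 0 of 9 tested members were called by edgeR, where 0% of all 16017 genes were. An unadjusted p under 0.05 was reached by 2 members, both lower (EGR1 and MYC), where 5.61% of all genes reached it in that direction. The same 2 members had groups that did not overlap, and 7.67% of all genes were lower without overlap. Over both directions these shares were 11% by p and 15% by overlap. Members with higher values numbered 0 by either measure, against 5.38% and 7.32% of all genes. DESeq2 and limma-voom called 0 members, and 0.474% and 0.318% of the genes they tested. With trends in GC content and length removed, edgeR called 0 members and 2.32% of genes. The median log2 fold change was -0.0096 over the 9 members, 5 of them negative, and 0.0066 over all genes. Without carmine sample C the median over members was -0.089, and 2 members were again lower at an unadjusted p under 0.05, against 6.42% of all genes.

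With carminic acid, edgeR again called 0 of 9 members and 0% of all genes. An unadjusted p under 0.05 was reached by 1 member, FOSL1, where 3.91% of all genes reached it as lower, and the same gene was the 1 member lower without overlap (8.82% of all genes). Over both directions these shares were 6.43% by p and 20.8% by overlap. Members with higher values numbered 0 by either measure, against 2.52% and 12% of all genes. DESeq2 and limma-voom called 0 members, and 0.0358% and 0.512% of the genes they tested. With trends in GC content and length removed, edgeR called 0 members and 0.0262% of genes. The median log2 fold change was 0.04 over the members, 4 of them negative, and -0.0078 over all genes. Both comparisons use the same 3 control samples.

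**Figure D1:**
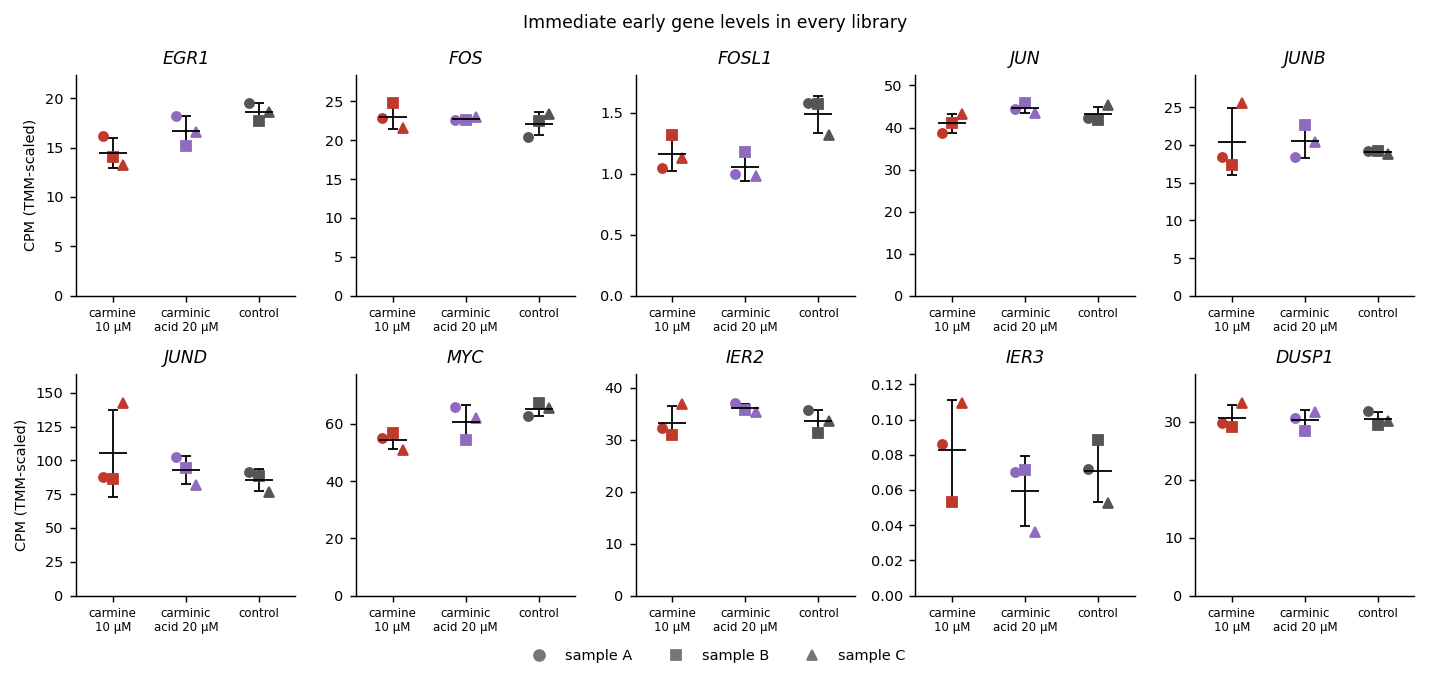
Level of each of the 10 immediate early genes in every library, in TMM-scaled CPM on a linear axis from 0; points are samples A, B and C of each group, and horizontal bars with whiskers are the mean and SD (n = 3). The 3 carmine points of EGR1 (13.2 to 16.1 CPM) and MYC (51.0 to 56.9 CPM) lie below all control points, and carmine sample C is the high point of JUND (142 CPM) and JUNB (25.5 CPM).

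EGR1 (Gene ID 1958, chromosome 5, 138465479 to 138469303, GRCh38) encodes a zinc finger transcription factor induced by growth factors, and its promoter is the one above with 2 CArG boxes. It stood at 16.1, 14.1 and 13.2 CPM in carmine samples A, B and C, at 18.2, 15.2 and 16.6 CPM with carminic acid, and at 19.5, 17.7 and 18.6 CPM in control. All 3 carmine samples were below the lowest control sample, while carminic acid sample A lay inside the control range. Means were 14.5 ± 1.496 CPM with carmine, 16.7 ± 1.52 CPM with carminic acid and 18.6 ± 0.897 CPM in control (SD, n = 3). For carmine against control the log2 fold change was -0.36 (SE 0.101, 95% interval -0.58 to -0.14, edgeR adjusted p = 0.332), lower in 3 of 3 samples, and it ranked 146 of 16017 genes by p. Without carmine sample C it was -0.29. Adjusted p was 0.12 in DESeq2 and 0.168 in limma-voom. For carminic acid it was -0.16 (95% interval -0.37 to 0.06, edgeR adjusted p = 0.717), and it was -0.23 without carminic acid sample A and -0.095 without sample B.

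FOS (Gene ID 2353, chromosome 14, 75278828 to 75282230), the prototype of the family and the partner of JUN in AP-1, stood at 22.9, 24.7 and 21.5 CPM with carmine, 22.6, 22.6 and 23.0 CPM with carminic acid, and 20.5, 22.4 and 23.4 CPM in control. Every pair of groups overlapped. Log2 fold changes were 0.06 for carmine (95% interval -0.12 to 0.24, edgeR adjusted p = 0.805) and 0.04 for carminic acid (-0.14 to 0.23, adjusted p = 0.896). The upper bounds correspond to 18.5% and 16.9% above control.

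FOSL1 (Gene ID 8061, chromosome 11, 65892049 to 65900545) encodes FRA-1, an AP-1 subunit that in carcinoma cells often responds to sustained ERK activity. Its counts were low, 61, 74 and 62 reads with carmine and 57, 66 and 54 reads with carminic acid, against 88, 89 and 75 reads in control. In CPM these were 1.05, 1.32 and 1.13 with carmine, 0.999, 1.18 and 0.977 CPM with carminic acid, and 1.58, 1.57 and 1.31 CPM in control. All carminic acid samples lay below control, and carmine sample B lay level with control sample C. The log2 fold change was -0.35 with carmine (SE 0.200, 95% interval -0.78 to 0.07, edgeR adjusted p = 0.511). It was -0.50 with carminic acid (SE 0.201, 95% interval -0.93 to -0.07, edgeR adjusted p = 0.717), lower in 3 of 3 samples.

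JUN (Gene ID 3725, chromosome 1, 58780791 to 58784047), the main dimer partner of the FOS proteins and a substrate of JNK, stood at 38.8, 41.1 and 43.3 CPM with carmine. It stood at 44.5, 45.7 and 43.6 CPM with carminic acid, and at 42.4, 41.9 and 45.3 CPM in control. The groups overlapped in both comparisons, with log2 fold changes of -0.07 for carmine (95% interval -0.23 to 0.09) and 0.05 for carminic acid (-0.11 to 0.21; edgeR adjusted p = 0.721 and 0.860).

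JUNB (Gene ID 3726, chromosome 19, 12791486 to 12793315) and JUND (3727, chromosome 19, 18279694 to 18281622) encode AP-1 subunits that in many cells restrain growth and oppose JUN. JUND stood at 87.4, 86.1 and 142 CPM with carmine, at 102, 94.4 and 82.0 CPM with carminic acid, and at 91.5, 88.6 and 76.3 CPM in control. Carmine samples A and B lay inside the control range and carmine sample C far above it. The log2 fold change of JUND with carmine was 0.30 (SE 0.181, 95% interval -0.11 to 0.70, edgeR adjusted p = 0.545), and 0.03 without carmine sample C. JUNB stood at 18.4, 17.3 and 25.5 CPM with carmine, at 18.4, 22.7 and 20.4 CPM with carminic acid, and at 19.2, 19.2 and 18.7 CPM in control. Carmine samples A and B lay just below the control range and sample C above it, and the log2 fold change of 0.10 (95% interval -0.18 to 0.37, edgeR adjusted p = 0.786) was -0.09 without it. With carminic acid the values were 0.12 for JUND (95% interval -0.29 to 0.52) and 0.10 for JUNB (-0.17 to 0.38; edgeR adjusted p = 0.854 and 0.815). With trends in GC content and length removed these were 0.011 and 0.0096. The annotated span of JUNB overlaps that of HOOK2, and the strand setting of the counting is not given, so reads in the overlap cannot be told apart.

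The transcripts of both genes are rich in G and C. GC content was 69.7% for JUND, above 99.4% of tested genes with a transcript in GENCODE, and 64.9% for JUNB, above 95.5%. In carmine sample C, deviations from the gene mean followed GC content across 15292 genes (Spearman 0.51), while in carmine samples A and B the coefficients were -0.44 and -0.44. Other libraries had such trends too, at 0.57 in carminic acid sample B and -0.51 in control sample C. Genes are not independent replicates, and these coefficients describe single libraries. Over the same genes, the log2 fold changes followed GC content too, with Spearman 0.15 for carmine and 0.48 for carminic acid. Genes in the top 10% of GC content were 0.43 (median, log2 CPM) higher in carmine sample C than in the mean of A and B, and those in the bottom 10% had a median of -0.27. JUND differed by 0.71 and JUNB by 0.51 on that scale. EGR1, FOS, FOSL1 and MYC had values of -0.19, -0.14, -0.06 and -0.13, below the median of genes of like GC content. JUN (0.12) and IER2 (0.22) were also below that median, and DUSP1 had a value of 0.17. With trends in GC content and length removed, the carmine log2 fold changes were 0.14 for JUND and 0.01 for JUNB, and -0.34 for EGR1 and -0.26 for MYC (edgeR adjusted p = 0.268, 0.945, 0.0804 and 0.131).

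**Figure D2:**
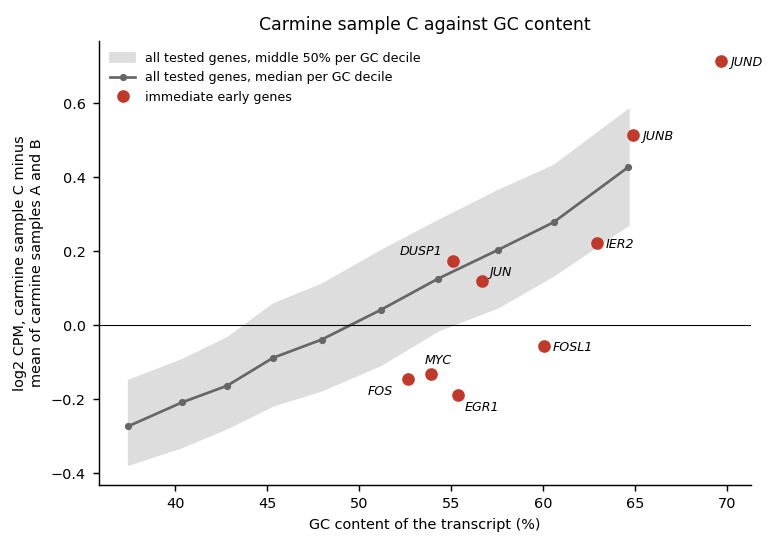
GC content of the transcript (%) against the difference in log2 CPM between carmine sample C and the mean of carmine samples A and B; the line and band are the median and the middle 50% of tested genes in 10 bins of GC content, and red points are the 9 tested immediate early genes. The band ends at the median GC content of the top bin, 64.6%, where its upper edge is at 0.58. JUND (0.71, GC content 69.7%) and JUNB (0.51, GC content 64.9%) lie beyond that end. EGR1 (-0.19), MYC (-0.13), FOS (-0.14) and FOSL1 (-0.06) lie under the band.

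MYC (Gene ID 4609, chromosome 8, 127735434 to 127742951), the growth regulator that pairs with MAX, stood at 54.9, 56.9 and 51.0 CPM with carmine. With carminic acid it stood at 65.9, 54.5 and 61.9 CPM, and in control at 62.6, 67.2 and 65.6 CPM. The 3 carmine samples lay below the lowest control sample, and carminic acid samples spread from the carmine range into the control range. Means were 54.2 ± 3.01 CPM with carmine, 60.7 ± 5.81 CPM with carminic acid and 65.2 ± 2.32 CPM in control (SD, n = 3). The log2 fold change was -0.26 with carmine (SE 0.0831, 95% interval -0.44 to -0.09, edgeR adjusted p = 0.371), lower in 3 of 3 samples, and -0.22 without carmine sample C. With carminic acid it was -0.10 (95% interval -0.28 to 0.08, edgeR adjusted p = 0.749), and it was -0.17 without carminic acid sample A and -0.030 without sample B. Whether the effects of the agents on EGR1 or MYC differ was not tested, since the doses differ.

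IER2 (Gene ID 9592, chromosome 19, 13150411 to 13154911), a small nuclear protein induced by serum, stood at 32.3, 30.9 and 36.8 CPM with carmine, 37.1, 35.8 and 35.3 CPM with carminic acid, and 35.7, 31.4 and 33.6 CPM in control. Groups overlapped for carmine (log2 fold change -0.0096, 95% interval -0.19 to 0.18) and for carminic acid (0.10, -0.08 to 0.29). The edgeR adjusted p-values were 0.979 and 0.749. With trends in GC content and length removed, the log2 fold changes of IER2 were -0.050 with carmine and 0.027 with carminic acid. DUSP1 (Gene ID 1843, chromosome 5, 172768096 to 172771195), the MAP kinase phosphatase that ends the signal, was the least variable member. It stood at 29.8, 29.05 and 33.2 CPM with carmine, 30.7, 28.3 and 31.7 CPM with carminic acid, and 31.8, 29.4 and 30.2 CPM in control. Its log2 fold changes were 0.01 (95% interval -0.17 to 0.19) and -0.01 (-0.19 to 0.17; edgeR adjusted p = 0.9752 and 0.9749).

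IER3 (Gene ID 8870, chromosome 6, 30743199 to 30744547), an NF-kB and p53 target that modulates survival signals, had 5, 3 and 6 reads with carmine, 4, 4 and 2 reads with carminic acid, and 4, 5 and 3 reads in control samples. The sums were 14 reads with carmine (exact Poisson 95% interval 7.65 to 23.5), 10 with carminic acid (4.80 to 18.4) and 12 in control (6.20 to 21.0), which covers counting error only. The groups overlapped and no difference was detectable from so few reads. The gene lies in the major histocompatibility region, and genes around it that most cells use were also nearly without reads. TUBB, a beta-tubulin gene within 100 kb, had 17 to 28 reads per library where the alpha-tubulin gene TUBA1B had 36596 to 43159. Of the same region, the ribosomal protein gene RPS18 had 11 to 32 reads where RPS19 had 48879 to 77400. These comparison genes were picked after their values were seen. The genome hg38 carries alternate copies of that region and how multi-mapping reads were handled is not given, so these counts are no measure of how much IER3 the cells make. The antisense gene IER3-AS1 also overlaps it.

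**Figure D3:**
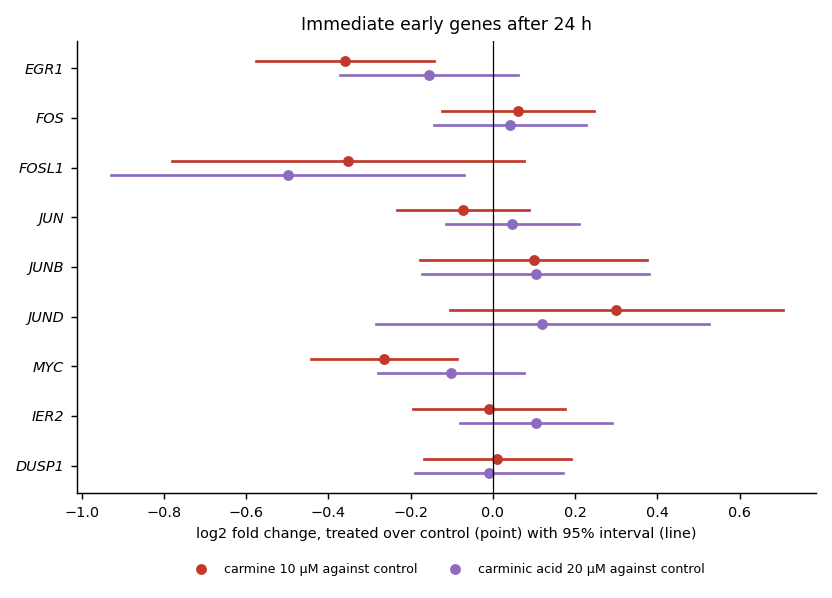
Log2 fold change, treated over control, for the 9 tested immediate early genes (points) with the 95% interval of the edgeR fit (lines), for carmine at 10 µM and carminic acid at 20 µM. The intervals of EGR1 and MYC with carmine and of FOSL1 with carminic acid lie below 0 before adjustment for 16017 genes; all others include 0.

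Ordered by level per kilobase of transcript (CPM per kb, mean of the 9 libraries), JUND was highest at 50.7, followed by MYC at 25.4, IER2 at 16.5, DUSP1 at 15.1, JUN at 12.1, JUNB at 10.98, FOS at 10.5, EGR1 at 5.28 and FOSL1 at 0.740. The ranges over the 9 libraries of IER2 and DUSP1 overlapped, as did those of JUN and JUNB and of JUNB and FOS. Within libraries, IER2 was above DUSP1 in 9 of 9 and JUN above JUNB in 8 of 9, all but carmine sample C, while JUNB was above FOS in 5 of 9. The other neighbours were separate in every library. JUND was above 91.3% of 15292 tested genes on this scale, MYC above 82.3%, FOS above 63.7%, EGR1 above 48.2% and FOSL1 above 20.7%. The highest library was 1.86 times the lowest for JUND, and only 1.17 times for DUSP1.

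The members share compact genes. JUN, JUNB and JUND have 1 exon and no intron, which holds for 2.49% of 13861 tested coding genes, and the other members have 2 to 4 exons where the median of tested genes is 9. Transcripts ran from 1244 bases for IER3 to 3540 for JUN, and the median over all was 3032. The pentamer ATTTA, the core of AU-rich decay elements, occurred in the 3′ untranslated region 6 times in IER3, 5 times in FOS, 4 times each in MYC and DUSP1, 3 times in JUN and 2 times in JUNB. EGR1, FOSL1 and JUND each had 1 and IER2 had 0, against a median of 2 over tested genes. These regions differ in length, from 476 bases in MYC to 1287 in JUN, with a median of 1165 over tested genes. Per kilobase the median number of pentamers was 1.542. FOSL1 (1.5015) and JUND (1.4684) lay just below it, and EGR1 (0.8104) and IER2 further below. The other members lay above it, among them JUNB (4.0) and MYC (8.4034). Among the 3 members with groups that did not overlap, MYC had 4 such pentamers and EGR1 and FOSL1 had 1 each.

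Other genes of the pathway were read from lists that were written down with earlier results of these data known. The edgeR fit called 0 genes of any list in either comparison. Counts below are of unadjusted p under 0.05, for which the share over all genes was 5.38% higher and 5.61% lower with carmine.

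With carmine, among 30 other immediate early genes, 28 were tested, 2 were lower and 1 higher at that p, with a median log2 fold change of -0.01. The smallest p belonged to EGR2, a close relative of EGR1, at 0.0859, 0.196 and 0.255 CPM with carmine and 0.538, 0.424 and 0.385 CPM in control. Its log2 fold change was -1.32 (SE 0.403, edgeR adjusted p = 0.358), on very few reads. KLF6, a Krüppel-type factor, stood at 83.6 ± 5.39 against 96.7 ± 3.30 CPM (-0.21, edgeR adjusted p = 0.417). BTG1, an antiproliferative gene, was the higher one, at 135 ± 5.59 against 121 ± 1.35 CPM (0.17, edgeR adjusted p = 0.401). NR4A1, ATF3 and KLF4, an orphan receptor and stress-induced factors, had log2 fold changes of 0.03, -0.02 and 0.04. SIK1 had the largest value of the list, 1.56, and it rested on carmine sample C at 3.21 CPM, with the other carmine samples at 0.549 and 0.552 CPM and control at 0.394 to 0.583 CPM. Without that sample its value was 0.19. SIK1 has a near-identical copy, SIK1B, which makes its count uncertain.

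Of 16 ERK feedback inhibitors and targets 14 were tested, with 3 lower, 0 higher and a median of -0.12 with carmine. ETV5, an ETS factor induced by ERK, stood at 13.7, 11.8 and 12.2 CPM with carmine and 15.5, 16.1 and 18.9 CPM in control, without overlap. Its log2 fold change was -0.42 (SE 0.114, edgeR adjusted p = 0.330). SPRY4, a Sprouty inhibitor of receptor signalling, stood at 10.6 ± 0.973 against 13.7 ± 0.577 CPM (-0.36, edgeR adjusted p = 0.332). DUSP6, the ERK phosphatase, had groups that overlapped (-0.20, adjusted p = 0.453), and DUSP5, SPRY2 and ETV4 had values of -0.02, -0.04 and 0.09. Among 30 genes from receptors to kinases, 1 was lower and 0 higher (median 0.02). EGFR, the receptor for epidermal growth factor, stood at 51.9 ± 5.36 against 61.2 ± 2.82 CPM (-0.24, edgeR adjusted p = 0.398).

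Upstream factors that act on immediate early promoters numbered 14, with 1 lower and a median of -0.05. It was MRTFB, a coactivator of serum response factor (-0.23, edgeR adjusted p = 0.445), with overlapping groups. SRF itself stood at 46.0 ± 7.39 CPM with carmine and 46.0 ± 3.67 CPM in control. Partners of MYC in the MAX network had 0 of 11 in either direction, and MAX stood at 64.0 ± 3.40 against 62.2 ± 3.48 CPM. The smallest p among these partners was that of MYCBP2 (-0.20, edgeR adjusted p = 0.534). Of 20 MYC targets 4 were lower and 0 higher, with a median of -0.11 and negative values for 14. They were NOP58 and GNL3, which act in the nucleolus, NCL, the nucleolin gene, and the replication helicase gene MCM4. NOP58 stood at 54.4 ± 6.05 CPM with carmine and 66.6 ± 3.94 CPM in control (-0.29, edgeR adjusted p = 0.346), and NCL at 449 ± 52.7 against 544 ± 13.7 CPM (-0.28, edgeR adjusted p = 0.358). Carmine sample C was the lowest of the 9 libraries for both, and without it the values were -0.22 for NOP58 and -0.18 for NCL.

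Among AP-1 partners and other leucine zipper factors, 3 of 10 were higher and 0 lower with carmine (median 0.03), BATF2, JDP2 and MAF. BATF2 stood at 9.26 ± 0.516 against 7.49 ± 0.267 CPM (0.31, edgeR adjusted p = 0.375). Among 10 tested AP-1 targets, VEGFA, an angiogenic growth factor, was the 1 lower gene, at 204 ± 7.92 against 230 ± 11.6 CPM (-0.17, edgeR adjusted p = 0.404), and the median was -0.13. Among 15 genes for the binding or decay of AU-rich mRNAs 2 were lower, TIA1 and DCP1A, with a median of -0.07. The smallest p was that of TIA1, an AU-rich element binding protein, at 69.7 ± 11.2 against 82.7 ± 3.23 CPM (-0.25, edgeR adjusted p = 0.410), with overlapping groups.

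These counts were also taken without carmine sample C, a setting chosen after the data were seen, and 0 genes of any list were then called. Other immediate early genes had 3 lower and 3 higher (EGR2 -1.66, KLF6 -0.16 and BTG1 0.21 among them), and ERK feedback genes 2 lower, with SPRY4 at -0.42 and ETV5 at -0.40. Promoter factors had 0 lower and 2 higher, with MRTFB at -0.14. Genes for the binding or decay of AU-rich mRNAs had 0 lower and 1 higher, with TIA1 at -0.13. MYC targets had 4 lower, with NOP56 (-0.20) in place of GNL3 (-0.17). The receptor and kinase list had 1 lower (EGFR -0.17), AP-1 targets 1 lower and MAX partners 0. Leucine zipper factors had 2 higher, BATF2 and MAF, and JDP2, at 0.15, was no longer among them. Over all genes 5.86% were then higher and 6.42% lower at that p.

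With carminic acid, 0 of 28 tested other immediate early genes reached an unadjusted p under 0.05 in either direction, where 2.52% of all genes were higher and 3.91% lower. EGR2 stood at 0.473, 0.339 and 0.489 CPM, inside or near the control range (log2 fold change -0.05). NR4A3, an orphan receptor, had the smallest p, at 0.160 ± 0.0642 against 0.301 ± 0.0615 CPM (-0.90, edgeR adjusted p = 0.717). Counts were also 0 for the 14 ERK feedback genes (median -0.08), the 14 promoter factors (-0.05), the 11 MAX partners (0.03) and the 20 MYC targets (-0.04). Their members with the smallest p were SPRED3 (-0.28), CREB1 (-0.16), MXD4 (0.18) and NOP58 (-0.18), with edgeR adjusted p of 0.717 to 0.720. In the receptor and kinase list 2 of 30 were higher (median 0.04). They were ERBB2, a receptor tyrosine kinase, at 571 ± 25.8 against 482 ± 30.8 CPM (0.24), and MAP2K2, the kinase that activates ERK, at 236 ± 18.4 against 194 ± 11.01 CPM (0.28; edgeR adjusted p = 0.717 for both).

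Among leucine zipper factors 2 of 10 were higher with carminic acid (median 0.07), NFE2L1 at 1708 ± 81.1 against 1506 ± 19.3 CPM (0.18) and BATF2 at 8.98 ± 0.348 against 7.49 ± 0.267 CPM (0.26; edgeR adjusted p = 0.717 for both). Of 10 AP-1 targets 2 were lower (median -0.10), the chemokine gene CXCL8 (-0.74) and the collagenase gene MMP1 (-0.38; edgeR adjusted p = 0.717 for both), each with overlapping groups. Of 15 genes for the binding or decay of AU-rich mRNAs 2 were lower (median -0.06). TIA1 stood at 63.4, 60.0 and 60.7 CPM with carminic acid and 86.3, 81.7 and 80.1 CPM in control, without overlap (log2 fold change -0.43, SE 0.0981, edgeR adjusted p = 0.667). TIAL1, its close relative, stood at 86.5 ± 1.01 against 95.3 ± 0.995 CPM (-0.14, edgeR adjusted p = 0.717). Across 15292 genes the log2 fold changes with carminic acid followed GC content (Spearman 0.48). The part of that trend in the list values with carminic acid was not tested.

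**Figure D4:**
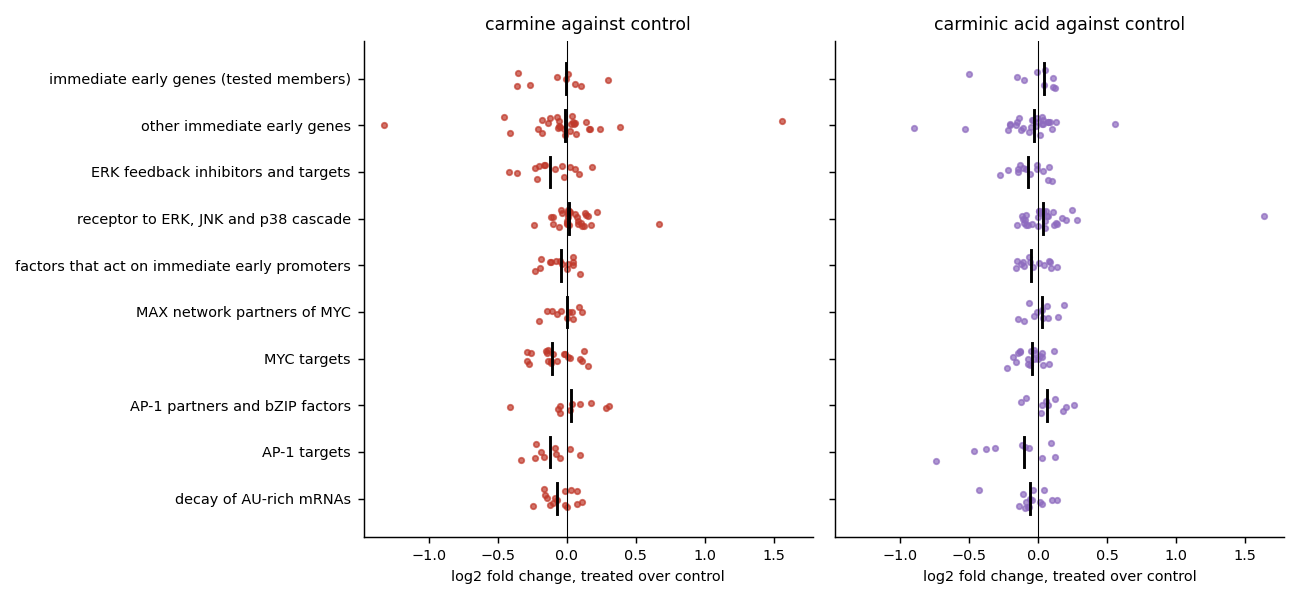
Log2 fold change, treated over control, of each tested gene (points) of the immediate early genes and of 9 lists of related genes, with the list median as a vertical bar, for carmine (left) and carminic acid (right). Medians lie between -0.13 and 0.07, and the far points belong to genes with few reads or 1 deviating library, such as SIK1 (1.56) and EGR2 (-1.32) with carmine and HRAS (1.64) with carminic acid.

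Genes with the most similar profile over the 9 libraries were taken by the smallest root mean square difference of centred log2 CPM, among 13237 genes. For EGR1, whose own spread was 0.18, these were DHX33 (difference 0.05) and ITSN2 (0.05), where the median gene differed by 0.22. For MYC, with a spread of 0.14, they were PMS2CL (0.03) and KDM6A (0.05), and for FOSL1, with 0.24, LINC02994 (0.09) and PRRT2 (0.10). For FOS they were DYNC1I2 and SLC11A2 (both 0.03), for JUN PARP1 (0.02) and SLC20A2 (0.04), and for IER2 CHDH (0.02) and LETM1 (0.03). For JUNB, with a spread of 0.16, they were DPH1 (0.03) and BAX (0.04), and for JUND, with 0.24, JOSD2 (0.06) and ALDH16A1 (0.07). For DUSP1, with a spread of 0.07, they were RHOB (0.04) and MARCKSL1 (0.05). None of these 18 genes is a member.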

How the data were processed

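The deposited files hold whole-number counts of reads per gene, without normalization by the authors as far as the values show, and each covers 1 library and names genes by NCBI Gene ID. The aligner was HISAT2, per the file headers. The tools FastQC, HISAT and featureCounts and the build hg38 are named per the submitters' processing notes. Annotation release, strand setting and handling of multi-mapping reads were not given in the sources used here. Symbols and positions came from RefSeq (GRCh38.p14), which named 27745 of 28395 genes, and lengths, GC content and exons from GENCODE 29, as the longest transcript with a RefSeq match.

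Tests ran on the deposited counts with edgeR 4.0.16 (R 4.3.3), using filterByExpr by group (16017 genes), TMM factors (0.969 to 1.02), and 1 robust quasi-likelihood fit of all 9 libraries without covariates. Tests were two-sided with Benjamini-Hochberg adjustment over all tested genes. The biological coefficient of variation was 10.9%. DESeq2 1.42.0 and limma-voom with a quality weight for each library (limma 3.58.1) were alternatives. Trend removal used per-library splines on GC content and log2 length as offsets, over 15292 genes. Code was tested on simulated data. Libraries of a group differed beyond sampling noise (chi-square per degree of freedom at least 9.51). Named genes were all members, the member of each list with the smallest p, and the 2 genes most alike each member. Other list genes were named after their values were seen. The members and lists were chosen with earlier results of these data known.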

Additional observations from a re-analysis of the deposited data

How the results depend on the processing

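Of 306 recomputed log2 fold changes of members, 291 kept their direction and side of the threshold, 14 turned and 1 passed the threshold. All 14 were small values. DUSP1 with carmine turned by library size alone (-0.022), in limma-voom (-0.019) and with GC and length trends removed (-6.0e-04), and ranged from -0.045 to 0.045 when 1 library was left out. DUSP1 with carminic acid was 0.013 in limma-voom and -0.053 to 0.034 with 1 library left out. JUNB with carmine was -0.054 in limma-voom and -0.089 (without carmine sample C) to 0.20 with 1 left out. IER2 with carmine ranged from -0.082 to 0.040 and FOS with carminic acid from -0.019 to 0.082. The cause was not tested. EGR1 and MYC with carmine, and FOSL1 with carminic acid, stayed negative in every alternative.

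Counts over all genes, 0 in edgeR in both comparisons, moved more. With carmine they were 7 with RLE factors, 7 by library size alone, 19 with no filter, 75 in DESeq2, 51 in limma-voom, 355 with trends removed and 12 with the 6 compared libraries alone. Leaving out 1 library gave 1 to 36, the highest without carmine sample C, then 11 without carmine sample A and 5 without control sample C. With carminic acid they were 2 with no filter, 8 in DESeq2, 82 in limma-voom, 4 with trends removed and 49 with the 6 libraries alone, and 0 to 1 when 1 library was left out. The cause of these shifts was not tested.

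The labels do not say whether sample letters pair the samples. Same-letter correlations of deviations ran from -0.15 to 0.07, and different-letter ones from -0.16 to 0.12. Single libraries also had trends with GC content, so these few values do not show whether the letters pair the samples. The replicate block alone called 0 genes and 0 members in both comparisons. The replicate block with GC and length trends removed called 716 of 15292 genes with carmine and 2 with carminic acid. It called 1 member, EGR1 with carmine (edgeR adjusted p = 0.036, log2 fold change -0.34). Over the other settings the adjusted p of EGR1 with carmine ran from 0.0804 to 0.671. Depth limits FOSL1, at 54 to 89 reads per library.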
